A study of Mus musculus with 3 samples.

Results

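Gpnmb macrophages were barcodes of a mouse kidney single-cell RNA sequencing experiment that held at least 2 unique molecular identifiers (UMIs, each standing for 1 captured RNA molecule) of Gpnmb together with macrophage transcripts. They were chosen by their counts of Gpnmb and a few other genes, so those counts describe the rule and are no result. The rule asked for at least as many UMIs as the smallest called barcode of the library in which that minimum was highest (Aoah-/- mouse 3), for at least 200 genes and for at most 50% of UMIs from the 13 mitochondrial genes. It further asked for Tyrobp and for Lyz2 or C1qa, for fewer than 3 of the 7 peritoneal macrophage genes Prg4, Alox15, F5, Selp, Vsig4, Tgfb2 and Garnl3, and for at most 2 UMIs of the tubule and T cell genes Lrp2, Slc34a1, Slc12a1 and Cd3g together. This left 95 barcodes of 48404 past the quality filters and of 73281 in all. Everything in the rule except the Gpnmb condition was met by 5041 barcodes, here called the macrophage gate.

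The study injected mice with folic acid (FA), which injures the tubules and leaves fibrosis, and took the kidneys on day 14. Mice of 6 to 8 weeks were used, on the C57/BL6J background, and each library came from 1 mouse. The knockout (Aoah-/-) was constitutive, so the change in Aoah, which encodes a lipase that inactivates bacterial lipopolysaccharide, was not limited to macrophages, and the wild-type (WT) control was a littermate. There were 2 Aoah-/- libraries (mice 2 and 3) and 1 WT library (mouse 3), all from FA-treated animals, so no untreated kidney stands beside them. Values of the 3 libraries are given below in the order Aoah-/- mouse 2, Aoah-/- mouse 3 and WT mouse. They held 167222984, 161015021 and 158551992 UMIs, and 16, 67 and 12 of the 95 members.

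Gpnmb is a membrane glycoprotein of endosomes and lysosomes, made by macrophages and osteoclasts that are loaded with material to digest. Macrophages that engulf dying cells take up lipid through receptors such as Trem2 and Cd36, break it down with acid hydrolases in lysosomes acidified by a proton pump, and store it in droplets or hand it on to lipoproteins. Cells of this kind, often marked by Gpnmb, Spp1, Fabp5 and Trem2, are known from injured and scarring tissue, where macrophages also secrete proteases and glycoproteins of the extracellular matrix. C1q, the first component of the classical complement pathway, is made by most mature tissue macrophages. The members were therefore set against 2248 C1q macrophages (695, 980 and 573) with no Gpnmb UMI, which carried Tyrobp, all of C1qa, C1qb and C1qc with at least 5 UMIs together, and met the same filters.

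The label was checked against its 4 markers. Gpnmb and Tyrobp were part of the rule and so check nothing. Mmp12 and Mfge8 were each detected in 38 of the 95 members (8, 27 and 3, and 5, 28 and 5), and 42 members held neither. The levels of Gpnmb were 1736, 1810 and 1065 UMIs per 1000000 UMIs of the members (CPM). Among T lymphocytes, which should lack it, the level was 0.233, 0.742 and 1.46 CPM and 0.0846%, 0.233% and 0.605% of cells held a Gpnmb UMI, at median depths of 2807, 3071 and 3184 UMIs. All 9 general macrophage markers were detected in each library, at a sum of 9576, 13553 and 13825 CPM against 15099, 17041 and 16226 CPM in the C1q macrophages. This list holds Tyrobp and C1q genes, on which the members, the C1q macrophages or both were chosen. Detection and sums are thus partly set by the choice and are not read as support for the label. Lyz2, lysozyme, also part of the rule, stood at 27189, 25026 and 30087 CPM against 6762, 6897 and 6699 CPM. C1qa was detected in 70 of the 95 members.

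The number of Gpnmb UMIs in a member ranged from 2 to 192, with a median of 8. Just inside the threshold were 19 members with exactly 2 UMIs, and just outside it were 47 barcodes of the macrophage gate with 1. At 5 UMIs or more there were 60 members. The members were deeper than the C1q macrophages, with medians of 15755, 6989 and 11914 UMIs per barcode against 4470, 4784 and 4320, and they ranged from 1728 to 47935 UMIs. The sums over members were 241344, 680217 and 149366 UMIs, so 3 UMIs were worth 12.4, 4.41 and 20.1 CPM, and the largest single barcode gave 18.8%, 7.05% and 15.8% of its library's member UMIs.

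Not all Gpnmb was in the members. Of 186 filtered barcodes with at least 2 Gpnmb UMIs, 147 held Tyrobp, 139 also Lyz2 or C1qa, and 131 also fewer than 3 peritoneal genes. The limit on tubule and T cell UMIs kept back 36 of these 131 (6, 27 and 3). In Aoah-/- mouse 3 the 27 barcodes kept back held 55.2% of all Gpnmb UMIs of the library, at a median depth of 17986 UMIs, while its 67 members held 37.98%. In the WT mouse 26.7% of Gpnmb UMIs were in 393 barcodes with fibroblast transcripts, of which 20.6% held a Gpnmb UMI. Levels in the members thus describe barcodes with few UMIs of the tubule and T cell genes of the rule, not all Gpnmb of the kidney.

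Gpnmb macrophages were rare in every library and made up a larger share in Aoah-/- mouse 3 than in either other mouse. Of the filtered barcodes they were 0.104% in Aoah-/- mouse 2 (95% Clopper-Pearson interval 0.0592 to 0.168). The share was 0.340% (0.264 to 0.432) for Aoah-/- mouse 3, and for the WT mouse it was 0.0904% (0.0467 to 0.158). The intervals cover counting error only. The interval of Aoah-/- mouse 3 did not overlap the others, whereas those of Aoah-/- mouse 2 and the WT mouse overlapped almost wholly. Of the macrophage gate they made up 0.969%, 2.99% and 1.04%. After each cell was thinned to the UMI minimum of the rule, 0.848%, 2.90% and 0.957% of the macrophage gate still held at least 1 Gpnmb UMI, in the same order, against 1.82%, 4.11% and 1.74% before thinning.

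With 1 WT library, no test of the genotypes was made. The mean share of the 2 Aoah-/- mice was 0.132 percentage points above the WT share, and the 2 Aoah-/- mice differed from each other by more than that. Without Aoah-/- mouse 3 the difference was 0.0132 percentage points, and without Aoah-/- mouse 2 it was 0.250.

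**Figure D1:**
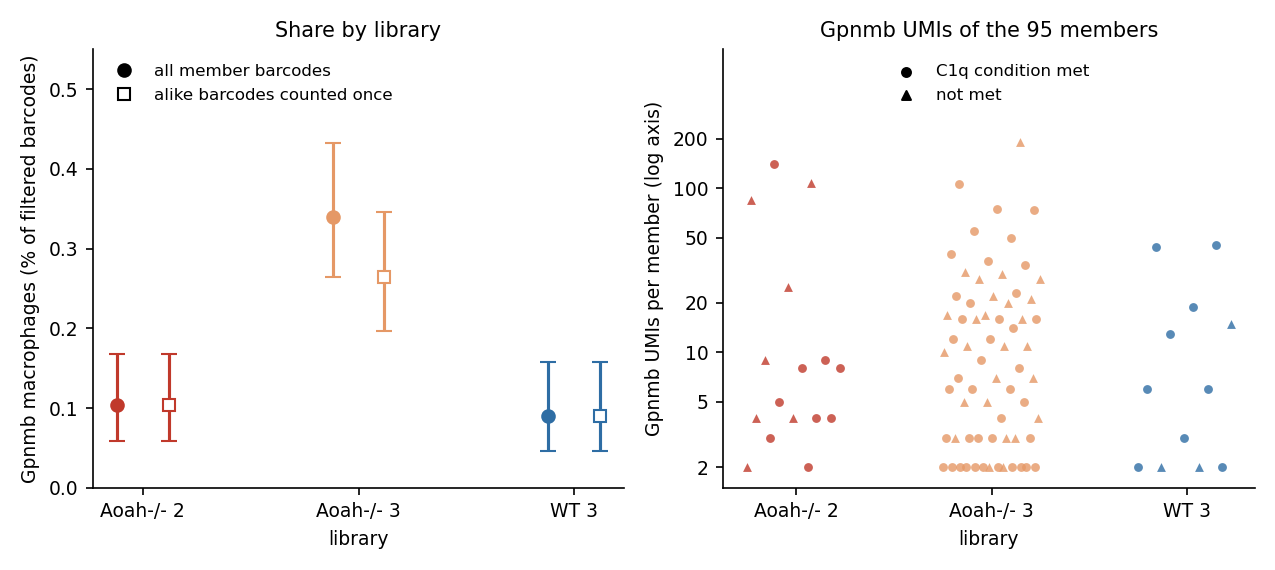
Left, Gpnmb macrophages as a percentage of filtered barcodes in each library with 95% Clopper-Pearson intervals, filled for all members and open squares for alike barcodes counted once. Right, Gpnmb UMIs in each member on a log axis, circles where the C1q condition was met and triangles where it was not. The share of Aoah-/- mouse 3 (0.340%, or 0.264% with alike barcodes counted once) lies above the other 2 libraries, while Gpnmb counts within members span 2 to 192 UMIs and overlap between libraries.

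Some members of Aoah-/- mouse 3 resembled each other more closely than any pair of members in the other libraries did. For each pair of barcodes of a library, the counts of genes were compared by a chi-square statistic divided by its degrees of freedom, which is near 1 when 2 barcodes differ by no more than sampling. At most 2 was reached by 41 of the 2211 member pairs of Aoah-/- mouse 3 (1.85%), by 0 of 120 in Aoah-/- mouse 2 and by 0 of 66 in the WT mouse. Among C1q macrophages it was reached by 0.0614%, 0.0323% and 0.0262% of pairs, and the largest alike group held 74, 41 and 11 barcodes. By barcodes the gap was smaller: alike groups held 20.9%, 18.6% and 10.1% of C1q macrophages, against 28.4% of the members of Aoah-/- mouse 3. The alike members fell into 4 groups of 12, 3, 2 and 2 barcodes, each linked through pairs at or under 2. The statistic can be lower for shallow barcodes, and depth was not matched: members had medians of 15755, 6989 and 11914 UMIs. The part of depth in these counts was not tested.

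The group of 12 stood out by its genes as well as its likeness. Its 66 pairs had a median ratio of 1.81 and a highest ratio of 7.76, and 14 of the pairs were within sampling noise (chi-square p of at least 0.05). The median ratio to the other members of the library was 9.97. These 12 barcodes held 44941 UMIs and 22.8% of the members' Gpnmb UMIs in that mouse, each with 10 to 55 Gpnmb and 2 to 54 Mfge8 UMIs, and none held a UMI of Mmp12. Whether they came from separate cells was not tested. With each group of alike barcodes counted once, Aoah-/- mouse 3 had 52 profiles (0.264% of filtered barcodes, 0.197 to 0.346), still above the other libraries, and the Aoah-/- mean was 0.0934 percentage points above the WT share. Between 171 and 176 barcode sequences were shared by any 2 libraries, and none of them was a member.

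RNA of other cell types was present in some members, and its part in the results was not tested except where given. The C1q condition of the comparison class was met by 59 members (9, 41 and 9) and not by 36 (7, 26 and 3). The 36 were shallower, with medians of 3411, 2823.5 and 8024 UMIs against 20056, 10373 and 12189. The summed neutrophil markers reached 756, 972 and 2051 CPM in them, against 26.7, 353 and 24.3 CPM in the 59 and 187, 362 and 130 CPM in the C1q macrophages. Single barcodes carried some of these values: all 53 neutrophil UMIs behind the 2051 CPM came from 1 of 3 barcodes, and 161 UMIs behind the 353 CPM from 1 of 41. At least 2 neutrophil UMIs were held by 15 of the 36 and 12 of the 59. Over all members 3, 6 and 3 of the 6 neutrophil markers were detected, S100a9 the most abundant at 91.2, 240 and 234 CPM. S100a8, its partner, was detected in 16 of the 36 and 6 of the 59. The neutrophil genes Retnlg, Cxcr2 and Mmp8 were at 0 in all members of Aoah-/- mouse 2 and the WT mouse. The receptor Csf1r, through which macrophages receive their survival signal, was detected in 15 of the 36 and 51 of the 59, and Adgre1, which encodes the macrophage surface protein F4/80, in 11 and 49. With the C1q condition asked of both classes, the test described below gave 324 genes higher and 493 lower.

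Fibroblast markers summed to 2216 CPM in the WT members against 4.14 and 1.47 CPM in the Aoah-/- members. This came from 2 WT barcodes, and Dcn, the proteoglycan decorin, was their most abundant fibroblast gene. Krt19, a keratin of epithelium and mesothelium, stood at 518 CPM in Aoah-/- mouse 2 and at 0 in the members of the other libraries. The 7 osteoclast markers summed to 331, 560 and 850 CPM in the members against 160, 149 and 107 CPM in the C1q macrophages, and 4, 5 and 2 of them were detected. The most abundant were Acp5 (253, 388 and 288 CPM) and, in the WT mouse, the library with the fibroblast RNA, Ctsk (562 CPM). Calcr and Oscar were at 0 in both classes of all 3 libraries. Proximal tubule markers, 2 of them in the rule, summed to 501, 854 and 529 CPM, below the 1059, 1298 and 1059 CPM of the C1q macrophages, with Kap the most abundant. The limit on tubule and T cell UMIs was the same in both classes, so it allowed the deeper members fewer CPM of the rule's genes.

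Over the 3 mice, every list examined but the cell cycle held genes that differed between the members and the C1q macrophages. In the lists of lipid handling, lysosomes, matrix remodelling, dead cell uptake, and iron and heme, genes were more often higher than lower. In those of antigen presentation, inflammatory mediators, resident macrophages and the stress of dissociation they were more often lower. Counts were summed over the barcodes of each class and library and compared by edgeR's quasi-likelihood test with the library as a block, with Benjamini-Hochberg adjustment and a call at an adjusted p under 0.05. Of 9020 genes tested, 406 (4.5%) were higher and 517 (5.73%) lower in the members, 10.2% in either direction. The lists below are to be read against these shares of all genes and against the median log2 fold change of all genes, which was -0.04. The 3 mice of 2 genotypes served as the replicates, and without Aoah-/- mouse 3, the mouse with most members, 173 genes were higher and 170 lower. Genes of the selection rule were left out of the test. Mmp12 and Mfge8, markers of the label, stayed in it, and the members and gene lists were chosen with earlier results of these data known. Calls of these genes and shares of the lists therefore describe the members and are no independent support for the label.

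Of the 49 lipid genes 42 were tested, 16 were higher (38.1%, beside 4.5% of all genes) and 2 lower, and the median log2 fold change was 0.58. Without Aoah-/- mouse 3, 9 were higher. The receptors and the lipase that bring lipid in rose in 5 of 8. Trem2, a lipid-sensing receptor, stood at 878, 863 and 890 CPM against 188, 213 and 153 CPM, a log2 fold change of 2.21 ± 0.17 (SE, n = 3 mice, edgeR adjusted p = 8.54e-07). Its level hardly differed between the mice. Lrp1, an endocytic receptor for lipoproteins, rose by 1.93 ± 0.18 on the log2 scale. Lpl, lipoprotein lipase, which frees fatty acids from triglyceride, stood at 1160, 737 and 884 CPM against 248, 307 and 227 CPM.

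Fatty acid binding and storage genes rose in 5 of 10. Fabp5, a carrier of fatty acids in the cytosol, stood at 2925, 3484 and 2203 CPM against 150, 178 and 64.1 CPM, and its log2 fold change of 4.50 ± 0.21 (edgeR adjusted p = 4.94e-09) was the largest of the lipid list. The summed member level of each library lay above the comparison level of every library. With each cell thinned to the same number of UMIs, Fabp5 was detected in 72.6% of members and 7.21% of C1q macrophages. Plin2, which coats lipid droplets, rose from 143, 143 and 165 CPM to 410, 448 and 435 CPM, a log2 fold change of 1.48 ± 0.17. It was not called after thinning, at 0.85.

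Genes that release cholesterol in and from the lysosome rose in 3 of 6, with log2 fold changes of 1.32 ± 0.17 for Lipa, the acid lipase, and 1.35 ± 0.24 for Npc1, the cholesterol exporter. Among efflux genes, carriers and their regulators 3 of 9 rose and 2 fell. Abca1 and Abcg1, which pass cholesterol to lipoproteins, rose by 1.01 ± 0.19 and 0.96 ± 0.21 on the log2 scale, and Pltp, the phospholipid transfer protein, fell by 1.14 and Mylip, which marks the LDL receptor for degradation, fell by 1.24. The call of Abca1 was lost after thinning (0.34), and that of Abcg1 with at most 1 UMI of a panel of markers of other cells (0.34). Apoe, the main apolipoprotein of macrophages, stood at 21646, 34338 and 32758 CPM against 21403, 23081 and 15823 CPM and did not pass the test (0.50 ± 0.20, edgeR adjusted p = 0.15). None of 9 tested genes of sterol synthesis was called in either direction.

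**Figure D2:**
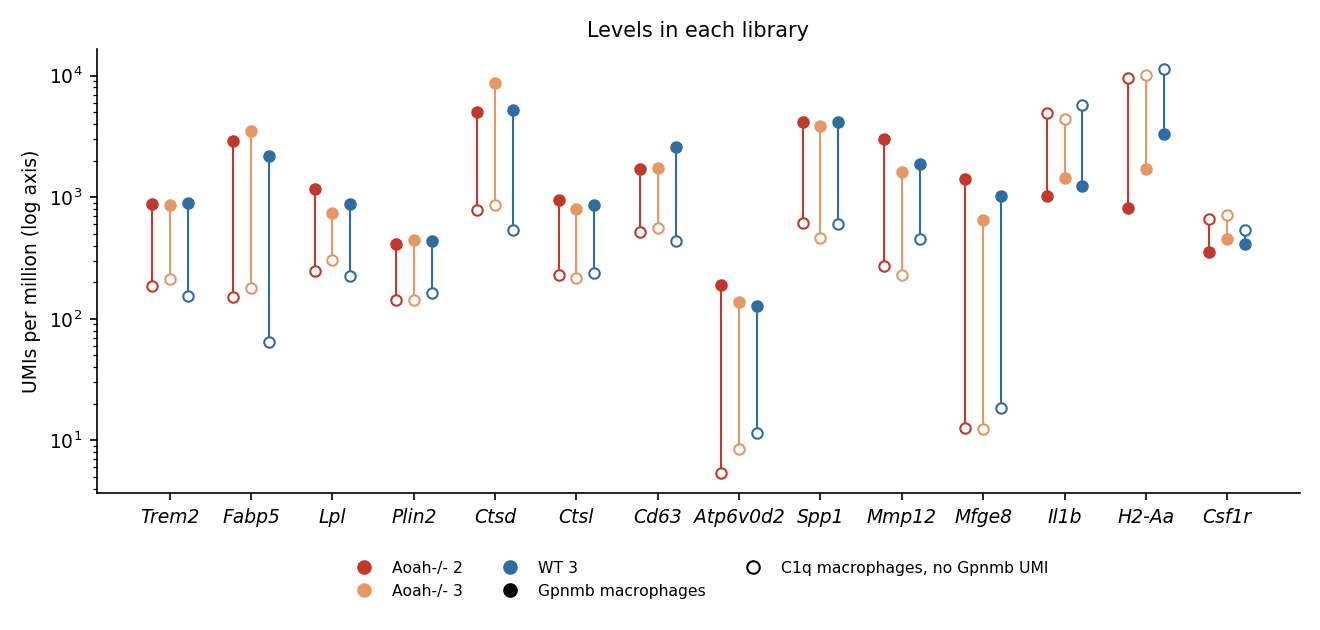
Levels of 14 named genes in CPM on a log axis, 1 point per library, filled for Gpnmb macrophages and open for C1q macrophages with no Gpnmb UMI. Filled and open points separate in all 3 libraries for each gene shown, with the widest gaps for Mfge8, Fabp5 and Atp6v0d2 and with Il1b, H2-Aa and Csf1r lower in the members.

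Of the 77 lysosome genes 76 were tested. Of these, 25 were higher (32.9%, beside 4.5% of all genes) and 1 lower, with a median log2 fold change of 0.40. Without Aoah-/- mouse 3, 11 were higher. With at least 1 Gpnmb UMI asked of a member, 13 were higher and the median was 0.21. With at most 1 UMI of a panel of markers of other cells, 14 were higher (median 0.28), and after thinning 12 (median 0.41). Of the cathepsins and other proteases, which cut proteins at acid pH, 7 of 14 rose and 1 fell. Ctsd, cathepsin D, stood at 5043, 8735 and 5229 CPM against 790, 866 and 542 CPM (log2 fold change 3.05 ± 0.18, edgeR adjusted p = 4.9e-08). It was detected in 94 of 95 members. Ctsl, cathepsin L, stood at 945, 801 and 864 CPM against 230, 218 and 238 CPM, and Ctsb rose by 1.47 ± 0.16 on the log2 scale. The libraries did not overlap for either. Ctsk, the collagen-cleaving cathepsin of osteoclasts, stood at 20.7, 126 and 562 CPM against 0.269, 1.09 and 0.319 CPM. It was detected in 19 members, and its level differed between the mice by far more than that of the other cathepsins. The highest level was in the WT mouse, in which fibroblast RNA was also present. Ctsc, which activates serine proteases of granules, fell by 1.27 on the log2 scale.

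The proton pump, which acidifies the lysosome, had 8 of 16 tested subunits higher and none lower. Atp6v0d2, a subunit of the pump's membrane part, stood at 191, 138 and 127 CPM against 5.37, 8.55 and 11.5 CPM (log2 fold change 4.14 ± 0.30, edgeR adjusted p = 3.74e-07). Atp6v1c1 rose by 1.82 ± 0.20 and Atp6v1a, the subunit that binds ATP, by 1.02 ± 0.18 on the log2 scale. Of membrane proteins 3 of 13 rose: Cd63, a tetraspanin, stood at 1715, 1742 and 2571 CPM against 520, 557 and 433 CPM, and Cd68 and Lamp1 rose by 1.10 ± 0.16 and 0.90 ± 0.16. Lamp1 was not called without Aoah-/- mouse 3 (0.84). Of 26 hydrolases of glycans, lipids and nucleic acids 5 rose, among them Acp5 (1.53 ± 0.21), and of 3 activators 2 rose, Grn, the precursor of lysosomal granulins, by 1.04 ± 0.17. None of the 4 MiT transcription factors, which bind the promoters of lysosome genes, was called.

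MiT factors bind an E-box, CACGTG, which is the core of the longer TCACGTGA. Promoters of RefSeq (GRCm38.p6, from 250 bases before to 50 after the start of a gene) were found for 62 of the 77 lysosome genes, and CACGTG lay in 16 of them (25.8%), against 8.09% of 27025 genes with a promoter. It lay in 8 of the 19 matched lysosome genes that were higher in the members (42.1%), in 15.2% of 33 lipid genes and in 2.27% of 44 matrix genes. TCACGTGA lay in 11.3% of matched lysosome genes and 1.12% of all. CACGTG reads the same on both strands, and a match is not evidence that a factor was bound. The promoters of Ctsd (chr7:142387778-142388077, minus strand) and Lamp1 (chr8:13158911-13159210, plus strand) are shown because they belong to called genes and hold several copies. E-boxes are in capitals, with the flanking bases also in capitals where the longer form matched.
Ctsd: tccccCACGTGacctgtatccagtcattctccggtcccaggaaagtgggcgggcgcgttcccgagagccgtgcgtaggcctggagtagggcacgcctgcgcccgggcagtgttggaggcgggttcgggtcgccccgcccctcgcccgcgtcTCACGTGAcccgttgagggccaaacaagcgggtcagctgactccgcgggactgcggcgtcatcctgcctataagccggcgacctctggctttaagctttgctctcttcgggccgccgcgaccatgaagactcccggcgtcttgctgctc
Lamp1: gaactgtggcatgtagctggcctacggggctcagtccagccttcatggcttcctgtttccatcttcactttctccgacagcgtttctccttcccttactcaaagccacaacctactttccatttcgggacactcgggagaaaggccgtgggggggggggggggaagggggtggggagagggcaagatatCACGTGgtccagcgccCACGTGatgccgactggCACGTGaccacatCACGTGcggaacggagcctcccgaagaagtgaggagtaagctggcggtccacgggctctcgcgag
In Ctsd the matches began 245 and 98 bases before the start, the second in the longer form. Lamp1 held 4 matches, which began 61, 45, 28 and 15 bases before the start.

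**Figure D3:**
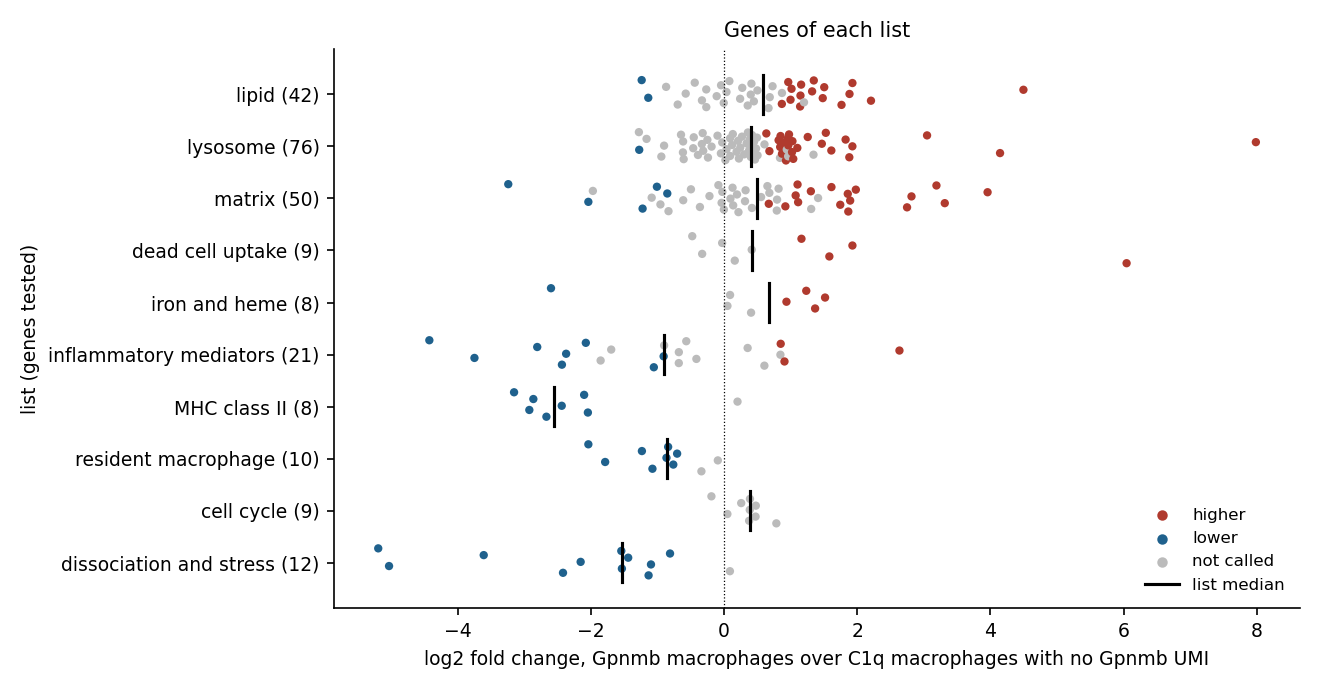
Log2 fold change of each tested gene of 10 lists, Gpnmb macrophages against C1q macrophages, 1 point per gene coloured by its call, with a bar at the list's median. Called genes of the lipid and lysosome lists lie almost all above 0, and those of the MHC class II, resident macrophage and dissociation lists lie below 0.

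Of the 63 matrix genes 50 were tested. Of these, 17 were higher (34.0%, beside 4.5% of all genes) and 5 lower (10%, beside 5.73%). The median log2 fold change was 0.49. This median depended on the library: the medians within the mice were -0.01, 0.55 and 0.90, and it was 0.29 without the barcodes holding more than 2 fibroblast UMIs, a limit chosen after the data were seen, and 0.31 with the C1q condition in both classes. With at least 3 Gpnmb UMIs asked of a member it was 0.16, with 16 genes higher and 11 lower. Without the WT mouse it was 0.24, and 15 genes were higher and 9 lower. Other settings raised it. Without Aoah-/- mouse 3 it was 0.61, with 12 genes higher and 2 lower. It was 0.64 with thinned cells and 0.60 with at most 1 UMI of a panel of markers of other cells. Without the 10% of cells with the most UMIs it was 1.01.

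Spp1, osteopontin, a secreted glycoprotein that binds integrins, stood at 4197, 3849 and 4131 CPM against 619, 465 and 607 CPM (log2 fold change 2.81 ± 0.16, edgeR adjusted p = 3.61e-08), and 78 of 95 members held it, unevenly. A single barcode held 29.4%, 32.0% and 68.2% of its UMIs in the 3 libraries, and without that barcode the levels were 3202, 2798 and 1429 CPM, still above the comparison. Mmp12, macrophage elastase, stood at 2996, 1624 and 1881 CPM against 271, 229 and 449 CPM (2.75 ± 0.23, edgeR adjusted p = 1.43e-06), and 38 members held it. Without the barcode that held most of it (33.5%, 17.2% and 37.7%) its levels were 2153, 1396 and 1392 CPM. Of 6 tested matrix metalloproteinases 4 rose and 1 fell. Mmp2, a gelatinase, was at 24.9, 45.6 and 208 CPM against 5.37, 3.46 and 4.15 CPM, highest in the WT mouse, in which fibroblast RNA was also present. Mmp19 and Mmp14 rose by 3.31 ± 0.47 and 1.10 ± 0.21 on the log2 scale. Mmp13, a collagenase, went the other way, at 8.29, 23.5 and 6.69 CPM against 132, 140 and 198 CPM.

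Adam8, a membrane protease of myeloid cells, rose by 3.19 ± 0.23 on the log2 scale. Of 7 protease inhibitors 3 rose and 1 fell: Cstb, which inhibits cathepsins inside the cell, rose by 1.89 ± 0.19 and the secreted Cst3 fell by 0.85. Of 7 matrix receptors 3 rose and 1 fell, the latter being Mrc1, the mannose receptor that takes up collagen fragments, which fell by 2.04. Of 7 growth factors 2 rose and 1 fell. Igf1 stood at 307, 268 and 328 CPM against 77.6, 85.9 and 55.5 CPM, and Vegfa rose by 1.87 ± 0.23 on the log2 scale. None of 5 tested collagens was called.

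Of 9 tested genes for the uptake of dead cells 4 were higher (44.4%, beside 4.5% of all genes) and none lower (list of 12). Mfge8, a secreted bridge between phosphatidylserine on dying cells and integrins of the phagocyte, stood at 1417, 647 and 1031 CPM against 12.6, 12.4 and 18.5 CPM (log2 fold change 6.04 ± 0.25, edgeR adjusted p = 2.49e-09). The summed member level of each library lay above the comparison level of every library. Yet the gene was detected in 38 of 95 members, and a single barcode held 35.4%, 45.9% and 57.8% of its UMIs. Without that barcode the levels were 997, 363 and 474 CPM. With the C1q condition in both classes its log2 fold change was 5.20. Cd300lf, a receptor for phosphatidylserine, rose by 1.58 ± 0.28. Of 8 iron and heme genes 4 rose (50%, beside 4.5% of all genes) and 1 fell (12.5%, beside 5.73%). The ferritin chains Fth1 and Ftl1 rose by 1.52 ± 0.18 and 1.23 ± 0.17, and Tfrc, the receptor that imports iron, was at 0, 2.94 and 6.69 CPM against 15.9, 17.3 and 14.99 CPM, under the 3-UMI floor in the members of each mouse.

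Genes of antigen presentation were lower in the members. Of 8 MHC class II genes 7 were lower (87.5%, beside 5.73% of all genes), with a median log2 fold change of -2.55. H2-Aa, which encodes a class II chain, stood at 820, 1702 and 3294 CPM against 9630, 10192 and 11253 CPM (-2.67 ± 0.26, edgeR adjusted p = 8.45e-06). After thinning it was detected in 40.0% of members and 97.2% of C1q macrophages. Cd74, the invariant chain, stood at 2130, 3283 and 7271 CPM against 18080, 19172 and 21194 CPM, and Ciita, the factor that switches these genes on, fell by 3.15. H2-Aa and Cd74 were highest in the WT members, where the 4 barcodes with exactly 2 Gpnmb UMIs held 325 of 492 H2-Aa UMIs. In barcodes with at least 10 Gpnmb UMIs the order differed, with H2-Aa at 15.2, 927 and 135 CPM and Cd74 at 198, 1715 and 1005 CPM.

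Of 21 tested inflammatory mediators 8 were lower (38.1%, beside 5.73% of all genes) and 3 higher (14.3%, beside 4.5%). Il1b stood at 1015, 1429 and 1232 CPM against 4885, 4375 and 5789 CPM, and the chemokine Ccl4 at 286, 704 and 703 CPM against 5604, 6306 and 9418 CPM. Ccl12, a ligand of the monocyte receptor Ccr2, fell by 4.43 on the log2 scale.

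Of 10 tested resident macrophage genes 8 were lower (80%, beside 5.73% of all genes) and none higher. Csf1r stood at 356, 451 and 415 CPM against 665, 720 and 541 CPM, and Adgre1 fell by 1.08 on the log2 scale. Without Aoah-/- mouse 3, neither was called, at log2 fold changes of -0.68 and -1.44 against -0.71 and -1.08 with all mice. Of 12 genes that respond to dissociation and stress 11 were lower (91.7%, beside 5.73% of all genes). Hspa1a, a heat shock protein, was at 16.6, 89.7 and 100 CPM against 1823, 2125 and 2357 CPM. Jun was at 630, 498 and 335 CPM against 1814, 2226 and 2205 CPM. None of 9 cell cycle genes was called, and 18 of 95 members held at least 1 UMI of Mki67 or Top2a, transcripts of dividing cells. No background share was set beside this count, so no share of dividing cells is read from it.

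Among called genes outside the lists, those with the largest rise were led by Ahnak2 (log2 fold change 6.13 ± 0.54), Fbxo32 (3.73 ± 0.31) and Anxa1 (3.65 ± 0.22). Anxa1, annexin A1, a phospholipid-binding protein that limits inflammation, stood at 630, 459 and 1252 CPM against 52.1, 48.8 and 64.4 CPM. The others were Syngr1, Sdc1, Slc7a2, Il7r, Clec4d, Pdpn, Gstm1, Slc6a8, Anpep, Vat1, Rnf128 and Capg, the last with the smallest rise, 2.64. Clec4d, a C-type lectin of myeloid cells, stood at 365, 350 and 248 CPM against 52.4, 28.4 and 21.4 CPM and was detected in 70 members. Capg, which caps actin filaments, stood at 870, 695 and 1038 CPM against 146, 117 and 136 CPM. Gstm1 was at 3957, 113 and 341 CPM, so Aoah-/- mouse 2, the library with Krt19, decided its mean. Without that mouse its log2 fold change was 1.37.

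Outside the lists, the largest falls among called genes with at least 50 CPM were in Retnla and Mgl2, genes of alternatively activated macrophages and dendritic cells. Retnla was at 16.6, 0 and 0 CPM against 283, 47.3 and 1683 CPM, a level that came from 81 of the 2248 C1q macrophages (3.60%) beside 1 of 95 members (1.05%). Mgl2 was at 0, 5.88 and 33.5 CPM against 185, 275 and 226 CPM. The haemoglobin genes Hbb-bs, Hba-a1, Hba-a2 and Hbb-bt, transcripts of red cells, followed, with Hbb-bs at 16.6, 35.3 and 73.6 CPM against 488, 793 and 2400 CPM. St3gal6, Lifr, Slc12a3 and C4b made up the rest, and the distal tubule transporter Slc12a3 was at 0, 8.82 and 0 CPM against 49.4, 69.1 and 44.7 CPM. The members were deeper, and both classes had passed the same limit on tubule and T cell UMIs. How far this set the falls of Slc12a3 and the haemoglobin genes was not tested.

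The members were not of 1 kind. Mmp12 and Mfge8 were both detected in 23, only Mmp12 in 15, only Mfge8 in 15 and neither in 42. With at least 5 UMIs, 24 members held Mmp12, 18 Mfge8 and 8 both. Of the 42 members with at least 10 Gpnmb UMIs (4, 33 and 5), 15 held at least 5 UMIs of Mmp12 and 17 at least 5 of Mfge8, which was 17 of the 18 such members. All barcodes of the alike group of 12 in Aoah-/- mouse 3 were among the 15 with only Mfge8 (0, 13 and 2 by library). Whether these 12 were separate cells was not tested, so the size of the Mfge8-only class rests on them. The group stood at 3605 CPM of Mfge8, 17512 CPM of Ctsd and 66.8 CPM of H2-Aa. In the members that did not meet the C1q condition, Mfge8 stood at 4334, 2365 and 38.7 CPM against 572, 230 and 1239 CPM in those that did. The first of these values rests on 2 barcodes with 121 and 114 Mfge8 UMIs, and the WT value on 3 barcodes with 1 Mfge8 UMI in all, 2 of them the barcodes with fibroblast RNA, so no direction is read from them.

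**Figure D4:**
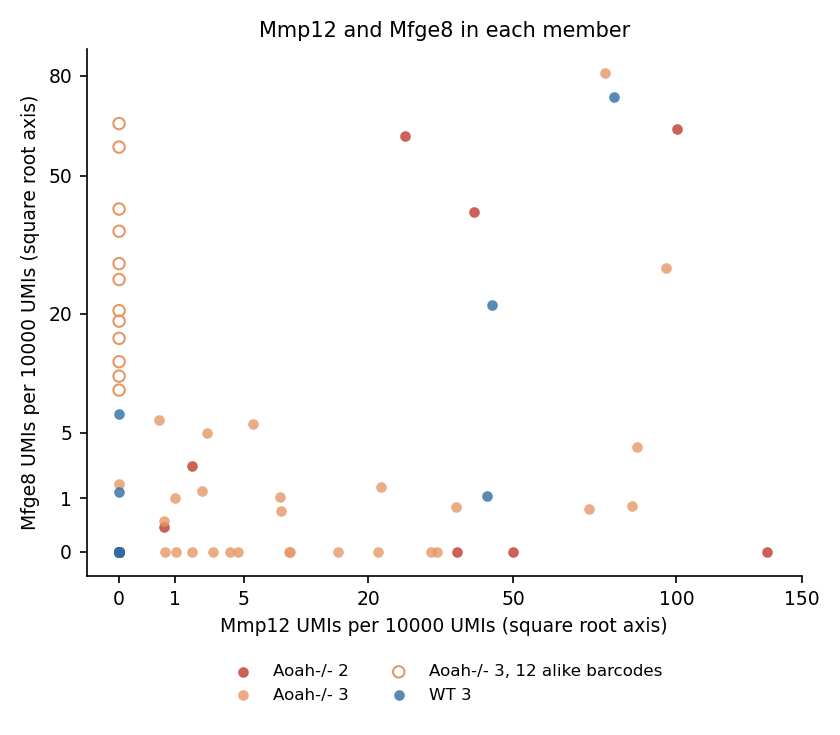
Mfge8 against Mmp12 in each member, in UMIs per 10000 UMIs of the barcode on square-root axes, coloured by library, with the 12 alike barcodes of Aoah-/- mouse 3 as open circles. Members spread along both axes, 42 of 95 lie at 0 for both genes, and the open circles all lie at 0 for Mmp12.

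Levels changed with the Gpnmb count at different points. Over the macrophage gate of all 3 libraries, the classes with 0, 1, 2, 3 to 4, 5 to 9 and at least 10 Gpnmb UMIs held 4899, 47, 19, 16, 18 and 42 barcodes. The class with 0 was all of the gate without Gpnmb, not only the 2248 C1q macrophages compared above. Apoe was at 10237 CPM in it, against 21403, 23081 and 15823 CPM in the C1q macrophages of the 3 libraries. How far this mix of cells set the steps from 0 upward, here and below, was not tested. Ctsd was at 547, 1658, 3725, 3659, 7573 and 9456 CPM in these classes, so barcodes with a single Gpnmb UMI, outside the rule, already lay above those with none. Fabp5 was at 116, 617, 839, 1508, 1955 and 4640 CPM. Both increased over nearly the whole range when the libraries were pooled. Within a library neither did so throughout: Ctsd in Aoah-/- mouse 3 was at 5009 CPM at 2 UMIs and 3795 CPM at 3 to 4, and Fabp5 in the WT mouse was at 1260, 887, 99.3, 4967 and 1921 CPM from 1 UMI up to 10 or more. In every library both were higher at 10 or more than at 0. The summed lipid list did not increase in this way. It was at 13242, 13664, 53873, 31232, 49395 and 38321 CPM, with Apoe, its most abundant gene, at 10237, 8851, 47732, 24860, 41547 and 26311 CPM. Its pooled peak at 2 UMIs was that of Aoah-/- mouse 3 (70073 CPM, 13 of the 19 barcodes), while in Aoah-/- mouse 2 and the WT mouse the list was highest at 5 to 9 UMIs (39032 and 68300 CPM).

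Mmp12 and Mfge8 were high only toward the upper end. Mmp12 was at 182, 285, 159.1, 135, 3324 and 2590 CPM, and Mfge8 at 18.3, 68.8, 14.5, 70.3, 35.1 and 1586 CPM. The pooled Mmp12 level at 5 to 9 UMIs was raised by 3 of the 5 barcodes of Aoah-/- mouse 2 (5677 CPM), with 242, 78 and 64 Mmp12 UMIs while the other 2 held none, and within Aoah-/- mouse 3 and the WT mouse Mmp12 was higher at 10 or more (2160 and 3031 CPM) than at 5 to 9 (1500 and 2378 CPM). H2-Aa was at 6776, 3304, 4867, 1913, 2335 and 732 CPM. In barcodes with at least 10 Gpnmb UMIs, Mmp12 was at 5052, 2160 and 3031 CPM in the 3 libraries, Mfge8 at 5098, 965 and 2266 CPM and H2-Aa at 15.2, 927 and 135 CPM. These classes hold few barcodes, share their libraries and differ in depth, and no test was made.

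**Figure D5:**
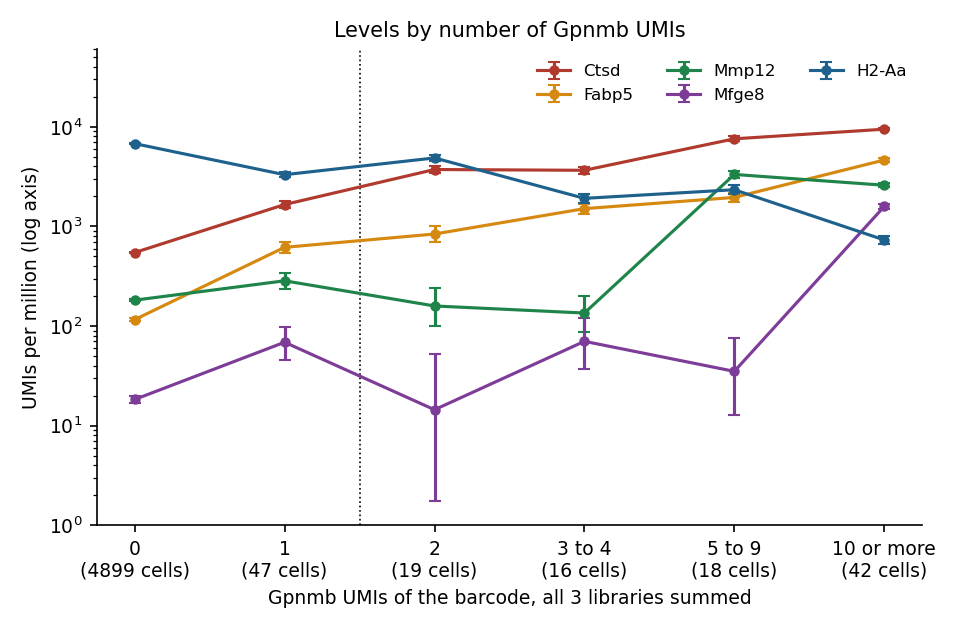
Levels of Ctsd, Fabp5, Mmp12, Mfge8 and H2-Aa in CPM on a log axis by the number of Gpnmb UMIs in macrophage-gate barcodes of all 3 libraries, with 95% Poisson intervals and a dotted line at the threshold of 2 UMIs. Ctsd and Fabp5 climb from 547 and 116 CPM at 0 UMIs to 9456 and 4640 CPM at 10 or more, Mfge8 reaches 1586 CPM in the last class only, and H2-Aa ends at 732 CPM.

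Between the genotypes, values of the members are given without a test. Of Aoah itself the members held 0, 2 and 2 UMIs (0, 2.94 and 13.4 CPM), all under the 3-UMI floor, and the 95% Poisson interval of the WT members was 1.62 to 48.4 CPM. In the C1q macrophages it stood at 2.96, 3.46 and 23.3 CPM, and over all barcodes at 6.06, 5.68 and 15.3 CPM, higher in the WT mouse than in both Aoah-/- mice. UMIs of Aoah were thus still counted in the Aoah-/- libraries, 1014 and 914 over all barcodes against 2424 in the WT mouse. Lipid and lysosome genes were, by their medians, higher in the members of each mouse. The lipid list had median log2 ratios of members to C1q macrophages of 0.63, 0.70 and 0.79, and the lysosome list of 0.36, 0.54 and 0.58.

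Of 2932 genes with at least 50 CPM in a genotype, 1315 had both Aoah-/- mice on the same side of the WT mouse by more than the gap between them. Both were set against the same single WT library, so this count only limits which genes are listed and shows no genotype effect. Among the 1315 genes, the highest in the Aoah-/- members by ratio were Sik1, Rasa1, Vamp3, Eif2ak2 and H2-T22. Sik1, a salt-inducible kinase, was at 78.7 CPM (95% Poisson interval 47.4 to 123) and 49.98 CPM (34.6 to 69.8) in the Aoah-/- mice and at 0 UMIs in the WT mouse, which allows up to 24.7 CPM. The C1q macrophages of the WT mouse held 38.3 CPM of it, close to the 46.5 and 53.1 CPM of the Aoah-/- mice. Rasa1, Vamp3 and Eif2ak2 were also at 0 UMIs in the 12 WT members and present in the WT C1q macrophages. The lowest in the Aoah-/- members were Dcn, Clec3b, Serping1, Col3a1 and Ccl11, each detected in 2 WT barcodes and in no Aoah-/- member. Dcn was at 1506 CPM in the WT members. These 5 genes moved with the fibroblast RNA of the 2 WT barcodes described above.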

How the data were processed

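The authors deposited, for each of the 3 libraries, raw, unnormalized UMI counts (27998 genes by called barcodes). The submitters' processing notes name Cell Ranger 3.1.0, STAR, Seurat 4.2.0 and genome build mm10, while the header of the deposited tables gives cellranger 6.1.2. Called barcodes began at 500, 1672 and 500 UMIs, so 1672 UMIs was asked of all libraries. The members and gene lists were chosen with earlier results of these data known.

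Counts were summed over the barcodes of each class and library (6 sums). They were compared with edgeR 4.0.16 (R 4.3.3; quasi-likelihood test, TMM normalization, filterByExpr, library as a block, 2 residual degrees of freedom, Benjamini-Hochberg adjustment over 9020 genes). The block was taken from the design, since both classes of a library came from the same mouse. The deviations of the classes correlated by 0.0764, 0.0612 and 0.115 within a mouse. The 17 genes used to choose either class were not tested. CPM are UMIs per 1000000 UMIs of a class. On simulated counts for the comparison of Gpnmb with C1q macrophages, with 9134 genes tested, 12.5% of 96 genes changed by 2-fold and 74.7% of 95 changed by 4-fold were recovered, with 2 false calls. Genes with the same symbol (56) were kept apart. Doublets were not called. The limit on tubule and T cell UMIs, a panel of 12 markers of other cells and the barcodes with the most UMIs were varied instead. Named genes were those of the rule, the list genes with the largest change or highest level, and, outside the lists, the 15 highest and 10 lowest called genes with at least 50 CPM and the same direction in all mice, and 5 genes in each direction between the genotypes. Intervals are exact at 95% and cover counting error only. Paralogs such as the ferritin, haemoglobin and MHC class II genes can share reads. Results that need items withheld from this text are not reported here.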

Additional observations from a re-analysis of the deposited data

How the results depend on the processing

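The 78 named genes with a test were refitted under 19 alternatives. Of 1465 values, 1402 kept their direction and their side of the threshold, 59 kept their direction but were no longer called, 4 were newly called and 0 changed direction. Most losses came without Aoah-/- mouse 3 (15 values), with at least 1 Gpnmb UMI (12), with at most 1 UMI of the panel of other cells (10) and with thinned cells (8). Of the calls lost without Aoah-/- mouse 3, only those of Lamp1, Csf1r and Adgre1 are marked beside their values above. Without 1 mouse at a time, 173 to 422 genes were higher and 170 to 597 lower, and the lists held 9 to 15 higher and 1 to 2 lower lipid genes (median log2 fold change 0.48 to 0.70), 11 to 25 higher and 1 to 2 lower lysosome genes (0.36 to 0.44), and 12 to 18 higher and 2 to 9 lower matrix genes (0.24 to 0.61). The lowest counts were those without Aoah-/- mouse 3. With the 1-UMI rule, 263 genes were higher, with 10 lipid genes higher and 1 lower and 13 lysosome genes higher (median 0.21). With at least 3 UMIs, 2 lysosome and 11 matrix genes were lower (matrix median 0.16). With the panel of other cells, 224 genes were higher and 315 lower, with 14 lysosome genes higher (median 0.28) and 3 matrix genes lower. Thinning left 150 genes higher and 239 lower, with 8 lipid genes higher (median 0.68), 12 lysosome genes higher and 3 matrix genes lower. DESeq2 1.42.0 called 327 genes lower (lipid median 0.48, matrix median 0.26). Without the filter on low counts the lipid median was 0.49 and 3 lysosome genes were lower. Without the limit on tubule and T cell UMIs, tried after the data were seen, 698 genes were higher and 896 lower, with 1 lipid gene lower (median 0.72) and 3 lysosome genes lower (median 0.59). Without the deepest 10% of cells, 1 lipid and 2 lysosome genes were lower and the matrix median was 1.01. The cause of these shifts was not tested.

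Without the block by library, 519 genes were higher and 604 lower, and 2 lysosome genes were lower in place of 1. Aoah-/- and WT share only replicate number 3, and nothing in the labels makes that number a pair. No analysis paired between the genotypes was therefore possible, and no test of the genotype was made. The Aoah-/- mean share was above the WT share under every setting run, by 0.0132 to 0.250 percentage points without an Aoah-/- mouse, by 0.515 with the panel of other cells and by 0.935 of the macrophage gate. In both of these Aoah-/- mouse 2 lay below the WT mouse (0.283% against 0.441%, and 0.969% against 1.04%). Libraries of 12 and 16 members limit single genes: a gene at 0 in the WT members may stand at up to 24.7 CPM.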
